A study of Mus musculus with 32 samples.

Results

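The translation initiation factors were described in mouse CD4+ T cells that had been cultured with macrophages, with or without their antigen. Members were all genes whose symbol on the array starts with Eif1 to Eif6, leaving out the eIF2 alpha kinases (Eif2ak) and the eIF4E-binding proteins (Eif4ebp), which regulate initiation and are given separately. The rule found 46 genes: 45 of the 22180 genes measured at 48 h and 35 of the 17097 genes measured at 72 h, with 34 on both platforms. Of the others, 11 had a probe set of their own only at 48 h and Eif2s3x only at 72 h. Probe sets shared with another gene were not used, among them those of Eif2s3x at 48 h and of Eif4a2 and Eif5b at 72 h. The symbols Eif1, Eif2s1, Eif3g and Eif4g1 were not analysed here.

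Initiation assembles a ribosome on the start codon of an mRNA. eIF2 brings the initiator tRNA to the small ribosomal subunit together with eIF1, eIF1A, eIF3 and eIF5, while eIF4E binds the mRNA cap, eIF4G bridges it to the ribosome and the helicase eIF4A, helped by eIF4B or eIF4H, unwinds the leader. eIF2B reloads eIF2 with GTP after each round, and this step is blocked when a stress kinase, such as the uncharged-tRNA sensor GCN2, phosphorylates eIF2 alpha. Resting T cells make little protein, and antigen recognition is known to raise their translation through mTORC1 and Myc.

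The CD4+ T cells came from axial and cervical lymph nodes of Balb/c mice carrying the DO11.10 T cell receptor transgene, which recognises a peptide of ovalbumin (OVA), so nearly all responding cells share 1 receptor. In every group they were cultured with thioglycollate-elicited peritoneal macrophages and single, viable CD4+ cells were recovered by sorting. At 48 h (MoGene-2_0-st arrays) the groups were OVA with macrophages pretreated with IL-4 and IL-10, OVA in medium low in arginine, OVA in medium low in leucine, OVA in medium low in lysine, OVA in full medium with untreated macrophages, and no OVA in each of the low media. At 72 h (HT_MG-430_PM arrays), all in full medium, they were OVA with pretreated macrophages, OVA with untreated macrophages and no OVA with untreated macrophages. The pretreatment used 10 ng/mL of each cytokine for 12 to 16 h and was washed off before the T cells were added, and a low medium held 1% of the normal amount of its amino acid. Each of the 11 groups had 3 arrays except the antigen-free low arginine group, which had 2. No antigen-free group in full medium was present at 48 h, so the antigen effect at 48 h is measured in low media only. The labels give no age or sex of the mice and do not say whether replicates came from separate mice or cultures, so p-values measure the spread between these arrays.

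All values are log2 intensities, and differences are log2 differences with their standard error (SE). "Called" means that the limma test, two-sided and adjusted over all genes of the platform (Benjamini-Hochberg), gave an adjusted p below 0.05. T cell markers were bright in every group and higher with antigen. Their mean over 8 genes at 72 h was 10.39 to 10.75 after pretreatment, 10.24 to 10.83 with antigen and untreated macrophages and 9.32 to 9.59 without antigen, and 6 of 8 were called higher with antigen (median 0.95). At 48 h it was 10.49 to 11 with antigen and 10.11 to 10.55 without, and 5, 3 and 3 of 8 were called higher in low arginine, leucine and lysine. Markers of other cells were present and moved with some groups. With antigen at 72 h, 12 of 12 mesothelial and stromal markers were lower (list means 4.02 to 4.42 with antigen, 9.99 to 10.34 without), as were 8 of 13 macrophage markers (3.58 to 3.64 with antigen, 4.9 to 6.76 without). In bulk samples fewer cells of a type and less RNA per cell cannot be told apart. The submitters' sample IDs at 48 h form 6 runs of consecutive numbers, 3 holding only low-medium arrays and 3 only full-medium arrays, so low against full medium and ID run cannot be told apart.

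Antigen went with the largest change in these genes. At 48 h, 34 of 45 members were called with antigen in low arginine (32 higher, 2 lower), against 29.4% of all genes (17.2% higher, 12.2% lower). In low leucine 37 of 45 were called (35 higher, 2 lower), against 41.3% of all genes (21.8% higher, 19.5% lower), and in low lysine 36 of 45 (33 higher, 3 lower), against 31% of all genes (18.4% higher, 12.6% lower). The median member was 0.76 higher in low arginine, 0.94 in low leucine and 0.81 in low lysine, while the median of all genes was -0.12, -0.13 and -0.09. Initiation factors are brightly expressed, and bright genes as a whole were higher too. In the brightest 25% of genes the median was 0.45, 0.52 and 0.45, and 49.5%, 57.8% and 53.1% were called higher (58.1%, 69.3% and 63.6% either way). At 72 h in full medium, 23 of 35 members were called (20 higher, 3 lower), against 38.2% of all genes (20.7% higher, 17.4% lower) and 58.8% of the brightest 25%, with a median of 0.44 in members, 0.26 in the brightest 25% and 0.02 in all genes.

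**Figure D1:**
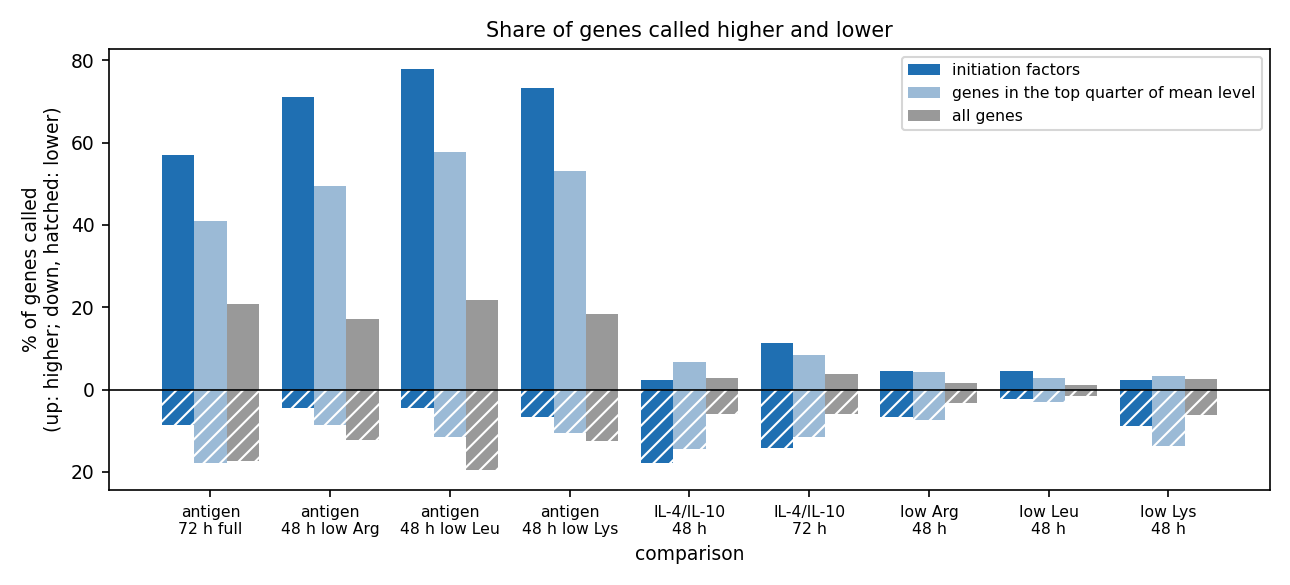
Percent of genes called higher (bars up) or lower (hatched bars down) in each of 9 comparisons, for the initiation factors, for the brightest 25% of genes and for all genes of the platform. In the 3 antigen comparisons at 48 h the initiation factors were mostly called higher, 32, 35 and 33 of 45, while the shares in the pretreatment and amino acid comparisons are far smaller.

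The other comparisons called fewer members. With IL-4/IL-10-pretreated macrophages 9 of 45 members were called at 48 h (1 higher, 8 lower), against 8.64% of all genes (2.71% higher, 5.93% lower) and 21.1% of the brightest 25%. At 72 h, 9 of 35 were called (4 higher, 5 lower), against 9.69% of all genes (3.78% higher, 5.91% lower) and 20% of the brightest 25%. With antigen present, low arginine against full medium called 5 of 45 members (2 higher, 3 lower), against 4.67% of all genes (1.51% higher, 3.17% lower). Low leucine called 3 (2 higher, 1 lower), against 2.72% (1.15% higher, 1.56% lower), and low lysine 5 (1 higher, 4 lower), against 8.73% (2.49% higher, 6.24% lower). In the brightest 25% those shares were 11.7%, 5.9% and 17%, against 11.1%, 6.67% and 11.1% of members. With only the 2 groups of a comparison in the fit, 19 members were called in low arginine (6 higher, 13 lower, with 11.1% of all genes called), 9 in low leucine (7.46%) and 3 in low lysine (4.36%). Single arrays moved several of these counts. After pretreatment at 48 h, 5 members were called without full-medium array 2 or 3 or pretreated array 1, and 4 without pretreated array 2. Over all genes, 5.18% to 5.91% were called in these fits. At 72 h, 3 were called without pretreated array 3 (2.9% of all genes) and 5 without untreated array 3 (3.15%). In low arginine, 3 were called without any 1 of the full-medium arrays or without low arginine array 1 or 2 (2.6% to 3.03% of all genes). In low lysine, 2 were called without full-medium array 2 or 3 or low lysine array 1 or 2 (4.07% to 4.45% of all genes). Without low lysine array 3, 12 members and 14.4% of all genes were called. The 3 low media and the pretreated group at 48 h are all set against the same 3 full-medium arrays.

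**Figure D2:**
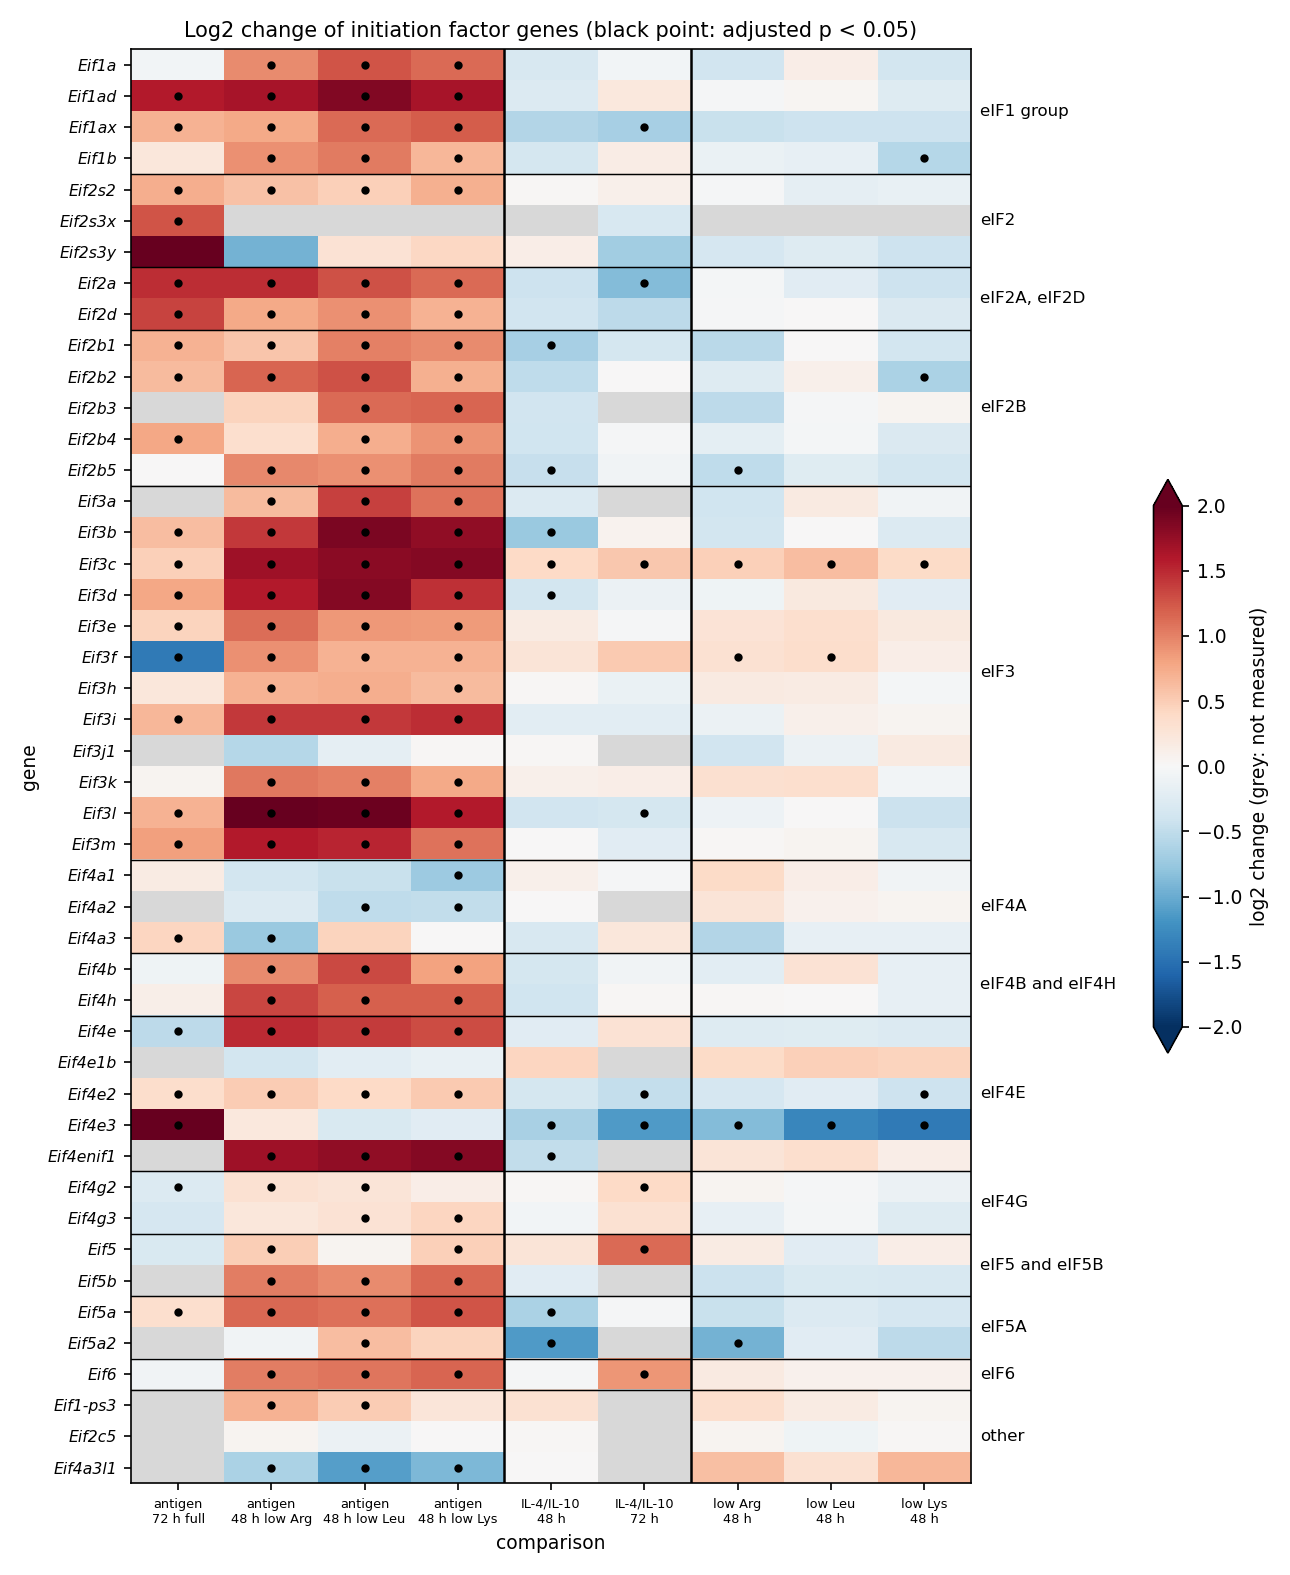
Log2 difference of each initiation factor, grouped by complex down the page, in 9 comparisons across the page, with red higher and blue lower in the first-named group. Black points mark calls at an adjusted p below 0.05, and grey cells mark genes without a probe set of their own on that platform. Eif3c is called higher in all 9 columns.

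Promoters were read because so many members moved together with antigen. RefSeq start sites (GRCm38.p6) were matched for 36 of the 46 members, and the 250 bases before each start were searched on both strands for the E-box CACGTG, the site that Myc and its relatives bind, and for TGATGNAA, a core of the C/EBP-ATF site bound by ATF4. The matches of the 2 motifs lay in different genes. The E-box was present in 8 of 36 members (22.2%), against 6.86% of 27025 genes. It lay 24 bases before the start in Eif1b, 44 in Eif3k, 68 in Eif3f, 96 in Eif4h and 189 in Eif4a1, at 64 and 228 in Eif4e and at 117 and 142 in Eif5a2. Eif5a has several starts, with an E-box 178 bases before one of them and another E-box that lies 74 bases before a second start and 185 before the next. TGATGNAA was present in 1 of 36 (2.78%), Eif2s3x, at 96 bases, against 3.91% of genes. Member promoters had a median GC content of 61.6%, against 52.4% over all promoters. The sequences of Eif4e and Eif5a2 are shown because each holds a pair of E-boxes, and that of Eif3c because it was called most often and holds neither motif. They run 5′ to 3′ up to the start, with the E-boxes in capitals.
Eif4e: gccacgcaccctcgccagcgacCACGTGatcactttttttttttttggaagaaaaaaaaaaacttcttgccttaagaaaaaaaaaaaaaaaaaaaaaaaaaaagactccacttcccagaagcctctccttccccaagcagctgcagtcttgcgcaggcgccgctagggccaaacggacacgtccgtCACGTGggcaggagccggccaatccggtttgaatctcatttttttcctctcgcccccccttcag
Eif5a2: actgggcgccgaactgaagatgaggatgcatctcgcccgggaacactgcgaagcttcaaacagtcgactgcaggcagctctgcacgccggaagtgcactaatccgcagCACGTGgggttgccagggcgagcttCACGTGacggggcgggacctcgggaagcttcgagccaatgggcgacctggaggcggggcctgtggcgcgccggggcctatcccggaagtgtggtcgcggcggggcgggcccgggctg
Eif3c: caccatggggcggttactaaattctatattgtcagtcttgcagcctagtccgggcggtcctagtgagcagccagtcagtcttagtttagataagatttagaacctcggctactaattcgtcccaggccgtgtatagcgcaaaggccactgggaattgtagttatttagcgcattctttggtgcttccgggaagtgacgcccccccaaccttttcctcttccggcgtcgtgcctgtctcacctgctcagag
The Eif4e promoter, before the downstream of its 2 starts, lies at chr3:138527018-138527267 (plus strand), Eif5a2 at chr3:28781027-28781276 (plus strand) and Eif3c at chr7:126566367-126566616 (minus strand). Members with the E-box were called higher with antigen in 6, 7 and 6 of 8 cases in low arginine, leucine and lysine (medians 0.99, 1.02 and 0.72), and members without it in 19, 20 and 21 of 27 (medians 0.75, 0.94 and 0.9). At 72 h 1 of 7 with the E-box was called higher and 2 lower, and of 21 without it 16 were called higher and 0 lower (medians 0.12 and 0.69). The 2 lower were Eif3f and Eif4e. Eif3f was level on a second probe set (11.95 with antigen, 11.9 without), and Eif4e was read near the bottom of that platform's range. The 72 h contrast therefore rests partly on these probe sets. Eif4e and Eif5a2, both with a pair of E-boxes, differed with antigen in low arginine by 1.49 and -0.07. Eif4e was called higher in each low medium. Eif5a2 was called higher in low leucine (0.62) and was not called in low lysine (0.44).

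eIF3, the largest factor, which holds the small subunit and mRNA together, was called higher almost throughout with antigen at 48 h. In each low medium 11 of its 12 measured subunits were called higher, with a median of 1.26 where arginine was low, 1.39 where leucine was low and 1.09 where lysine was low. The exception was Eif3j1, a loosely attached subunit, with differences of -0.57, -0.18 and 0.02. It was read from a dim probe set (mean 6.42 over all arrays). A brighter probe set shared by Eif3j1 and Eif3j2 (mean 9.79) was not used. Eif3l, a peripheral subunit, had the largest eIF3 rise in low arginine and low leucine. Its values were 10.71, 10.69 and 10.7 with antigen in low arginine, against 8.49 and 8.81 without. In low leucine they were 10.77, 10.75 and 10.88 with antigen, against 8.4, 9.09 and 9.04 without. In low lysine they were 10.3, 10.31 and 10.49 with antigen, against 8.73, 8.48 and 9.12 without. No antigen array overlapped an antigen-free one, and the differences were 2.05 ± 0.17, 1.96 ± 0.15 and 1.59 ± 0.15 (SE). Eif3b, a scaffold subunit with an RNA-binding domain, was higher by 1.41 ± 0.18, 1.88 ± 0.16 and 1.77 ± 0.16, and Eif3d, which can bind the cap of some mRNAs, by 1.58 ± 0.13, 1.84 ± 0.12 and 1.46 ± 0.12. Eif3h, a subunit of the MPN family, had small rises of 0.69 ± 0.11, 0.73 ± 0.1 and 0.64 ± 0.1, all called.

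At 72 h, 7 of 10 measured eIF3 subunits were called higher with antigen and 1 lower, with a median of 0.55. Eif3m and Eif3d were higher by 0.82 ± 0.1 and 0.78 ± 0.09. The lower one was Eif3f, a subunit of the MPN family, at 11.82 ± 0.19 with antigen and 13.23 ± 0.09 without (SD, n = 3 each), a difference of -1.41 ± 0.18 (adjusted p = 8.79e-05). A second Eif3f probe set did not show this, with means of 11.95 with antigen and 11.9 without, so the direction of Eif3f at 72 h depends on the probe set. At 48 h Eif3f was called higher with antigen in all 3 low media, by 0.91 ± 0.1, 0.7 ± 0.09 and 0.69 ± 0.09.

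Eif3c, the core eIF3 subunit that contacts eIF1 and eIF5, was called higher in all 9 comparisons of antigen, pretreatment and amino acid, the most of any member. Its values at 48 h were 11.59, 11.65 and 11.65 with antigen in low arginine, against 9.88 and 10 without. In low leucine they were 11.71, 11.87 and 11.73 with antigen, against 9.97, 9.92 and 10.03 without. In low lysine they were 11.51, 11.53 and 11.59 with antigen, against 9.64, 9.67 and 9.82 without. The groups lay far apart in each medium, and the differences were 1.69 ± 0.09, 1.8 ± 0.08 and 1.83 ± 0.08, with limma adjusted p of 5.1e-12, 2.22e-13 and 1.46e-13. With antigen in full medium the 48 h values were lower, at 11.15, 11.11 and 11.19, and below every array with antigen in a low medium. Eif3c was thus called higher in low arginine than in full medium by 0.48 ± 0.08 (adjusted p = 0.000961), in low leucine by 0.62 ± 0.08 (adjusted p = 6.61e-05) and in low lysine by 0.39 ± 0.08 (adjusted p = 0.00505).

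eIF1 and eIF1A act in start codon selection, and the eIF1 group was formed by gene symbol. All 4 genes of the group, Eif1a, Eif1ad, Eif1ax and Eif1b, were called higher with antigen in each low medium, with medians of 0.93, 1.19 and 1.17. Eif1ad, which carries an eIF1A-like domain, had the largest rises of the group. Its values were 8.88, 8.86 and 8.87 with antigen in low arginine, against 7.17 and 7.29 without. In low leucine they were 8.81, 9.06 and 8.91 with antigen, against 6.7, 7.13 and 7.42 without. In low lysine they were 8.37, 8.74 and 8.79 with antigen, against 7.1, 6.95 and 6.92 without. At 72 h Eif1ad was 8.26, 8.5 and 8.44 with antigen, against 6.4, 7.1 and 6.93 without, and was higher by 1.59 ± 0.2 (adjusted p = 6.86e-05). It was separated from its antigen-free group by more than the spread in all 4 comparisons. Eif1ax, the X-linked eIF1A gene, was also called higher at 72 h, by 0.69 ± 0.13, while Eif1a (-0.05 ± 0.19) and Eif1b (0.23 ± 0.13) were not called there.

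Of eIF2 itself, Eif2s2 encodes the beta subunit and was called higher with antigen in low arginine (0.59 ± 0.15), low leucine (0.47 ± 0.13), low lysine (0.71 ± 0.13) and at 72 h (0.72 ± 0.1). Eif2s3x encodes the gamma subunit from the X chromosome and had a probe set of its own at 72 h only. There it had 10.39, 10.73 and 10.59 with antigen, against 8.87, 9.6 and 9.49 without. It was higher by 1.25 ± 0.18 (adjusted p = 0.000174). Eif2a and Eif2d, factors that can deliver tRNA to the ribosome without eIF2, were called higher in all 4 antigen comparisons. Eif2a was higher by 1.48 ± 0.15, 1.28 ± 0.13 and 1.14 ± 0.13 in low arginine, leucine and lysine. At 72 h it had 9.25, 9.06 and 9.07 with antigen, against 7.6, 7.64 and 7.7 without, a difference of 1.48 ± 0.16. Its 2 sets of values at 72 h were tight and did not overlap.

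eIF2B, the exchange factor for eIF2, was called higher with antigen in 3, 5 and 5 of its 5 subunits in low arginine, leucine and lysine. In low arginine Eif2b3, a subunit of the catalytic part, differed by 0.44 ± 0.17 (adjusted p = 0.0578) and Eif2b4, of the regulatory part, by 0.34 ± 0.2 (adjusted p = 0.21). In low leucine and low lysine Eif2b3 was called, at 1.13 ± 0.16 and 1.16 ± 0.16. Eif2b5, the catalytic subunit, was higher by 0.96 ± 0.16, 0.92 ± 0.14 and 1.04 ± 0.14. Eif2b2, of the regulatory part, had values of 7.62, 7.47 and 8.01 with antigen in low arginine, against 6.32 and 6.74 without. In low leucine they were 8.17, 8.11 and 7.89 with antigen, against 6.46, 6.99 and 6.87 without, and in low lysine 7.09, 7.19 and 7.66 with antigen, against 6.54, 6.67 and 6.61 without. Its differences were 1.17 ± 0.19, 1.28 ± 0.17 and 0.71 ± 0.17. At 72 h Eif2b1, Eif2b2 and Eif2b4 were called higher, by 0.69 ± 0.24, 0.64 ± 0.14 and 0.77 ± 0.13, and Eif2b5, near the bottom of the range on that platform, was not (0.01 ± 0.17).

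Among cap-binding factors, Eif4e, the limiting cap-binding protein and a known target of signalling in dividing cells, was higher with antigen at 48 h. It had 9.39, 9.46 and 9.54 with antigen in low arginine, against 7.89 and 8.06 without. In low leucine it had 9.44, 9.53 and 9.47 with antigen, against 7.65, 8.29 and 8.28 without, and in low lysine 9.49, 9.3 and 9.56 with antigen, against 8.16, 8.2 and 8.07 without. The antigen arrays of all 3 media lay within a narrow band above the antigen-free ones, with differences of 1.49 ± 0.17, 1.4 ± 0.15 and 1.3 ± 0.15. At 72 h Eif4e had 3.24 ± 0.08 with antigen and 3.77 ± 0.13 without (SD, n = 3 each), called lower by a log2 difference of -0.53 ± 0.1, on a probe set near the bottom of that platform's range. Centring every array on its median left -0.02 there (adjusted p = 0.928). Eif4e2, a cap-binding protein that represses its mRNAs, was higher by 0.51 ± 0.13, 0.4 ± 0.12 and 0.53 ± 0.12 at 48 h and by 0.35 ± 0.09 at 72 h. Eif4enif1, which carries eIF4E into the nucleus and into mRNA storage granules, was higher by 1.7 ± 0.17, 1.78 ± 0.15 and 1.83 ± 0.15.

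For eIF4A, the helicase, the brightest probe set of each gene was not among the rises at 48 h. On these probe sets none of its 3 genes was called higher with antigen in any low medium, and 1, 1 and 2 were called lower in low arginine, leucine and lysine. Eif4a1, the main helicase gene of the family, was at 12.47 ± 0.33 with antigen in low arginine (SD, n = 3) and 12.83 ± 0.23 without (SD, n = 2), among the brightest members, and the difference of -0.36 ± 0.29 was not called. In low lysine the Eif4a1 call ended without antigen array 2 or 3 or antigen-free array 1 (-0.73 to -0.46), and that of Eif4a2 without antigen array 3 or antigen-free array 1 (-0.37 and -0.4). There the Eif4a1 difference of -0.73 ± 0.26 (adjusted p = 0.0343) came with overlapping groups and became -0.05 when its probe sets were averaged (adjusted p = 0.846). The dimmer of its probe sets ran the other way, at 9.38 with antigen and 8.93 without in low arginine, 9.51 and 8.8 in low leucine and 9.41 and 8.78 in low lysine, so the direction of Eif4a1 at 48 h depends on the probe set. Eif4a2 was lower in low leucine (-0.51 ± 0.14) and low lysine (-0.5 ± 0.14), calls that ended with all probe sets averaged (-0.26 and -0.21, adjusted p = 0.128 and 0.25). Eif4a3, the exon junction helicase, was lower in low arginine (-0.75 ± 0.21), but not without antigen-free array 1 (-0.65, adjusted p = 0.113). Eif4a3l1, a copy of Eif4a3, had 8.15, 7.63 and 7.48 with antigen in low arginine, against 8.35 and 8.43 without. It was called lower in all 3 low media, by differences of -0.64 ± 0.24, -1.1 ± 0.22 and -0.9 ± 0.22, and the call in low arginine ended without any 1 of its antigen-free arrays or antigen array 2 or 3 (-0.68 to -0.5). A probe set shared by Eif4a3 and Eif4a3l1 was not used. The helicase partners Eif4b and Eif4h were both called higher in each medium, Eif4h by 1.34 ± 0.18, 1.2 ± 0.16 and 1.2 ± 0.16.

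The eIF4G genes measured here moved little with antigen at 48 h. Eif4g2, a relative of eIF4G without the cap-binding end, differed by 0.31 ± 0.1, 0.26 ± 0.09 and 0.14 ± 0.09, and Eif4g3, an eIF4G paralogue, by 0.23 ± 0.12, 0.29 ± 0.11 and 0.43 ± 0.11. At 72 h Eif4g2 was called lower (-0.27 ± 0.09, adjusted p = 0.0301). Its call ended without antigen array 1 or 3 or antigen-free array 1 or 3 (-0.27 to -0.2), and with arrays centred on their medians its difference was 0.24 (adjusted p = 0.141). The array medians at 72 h were lower with antigen, at 4.73, 4.61 and 4.71, than without, at 5.14, 5.35 and 5.09. With centring more members were called with antigen at 72 h. Centring shifts every gene of an array by the same amount, so it raised the antigen difference of all genes, not only of members.

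Late factors were higher with antigen at 48 h. Eif5b, the GTPase that joins the ribosomal subunits, rose by 1.03 ± 0.19, 0.94 ± 0.17 and 1.15 ± 0.17 and Eif6, which keeps free large subunits apart, by 1.03 ± 0.21, 1.07 ± 0.19 and 1.17 ± 0.19. Eif5a, the hypusine-bearing factor that helps ribosomes through difficult peptide bonds, rose by 1.15 ± 0.17, 1.1 ± 0.15 and 1.26 ± 0.15, and by 0.34 ± 0.07 at 72 h. Its paralogue Eif5a2 was called higher only in low leucine (0.62 ± 0.19), with -0.07 ± 0.21 in low arginine and 0.44 ± 0.19 in low lysine. Eif5, which triggers GTP hydrolysis on eIF2, was called higher in low arginine (0.49 ± 0.13) and low lysine (0.47 ± 0.12) and had 0.05 ± 0.12 in low leucine. At 72 h neither Eif5 (-0.31 ± 0.19) nor Eif6 (-0.07 ± 0.14) was called.

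Other genes moved with antigen in the same arrays. All 9 cell division markers were called higher in each antigen comparison, and at 72 h their mean was 10.31 to 10.63 with antigen, against 7.3 to 7.48 without. At 48 h, 6, 9 and 6 of 13 macrophage markers and 3, 7 and 2 of 12 mesothelial and stromal markers were called lower with antigen in low arginine, leucine and lysine. Their part in the initiation factor results was not tested.

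Whether the antigen effect differed between the low media was tested directly with a moderated F test over the 3 media. No member was called, against 0.149% of all genes (33 of 22180), and 5 members and 1981 genes had an unadjusted p below 0.05. The lowest adjusted p among members was that of Eif4a3, 0.179. Single pairs of media with antigen called 1 member each. Eif3a, the main scaffold subunit of eIF3, was lower in low arginine than in low leucine, at 10.27, 10.3 and 10.16 against 10.78, 10.85 and 10.84 (-0.58 ± 0.14, adjusted p = 0.0469), where 0.712% of all genes were called (0.234% higher, 0.478% lower). Same-numbered arrays of that pair varied together, and with the replicate number as a block 3 members and 1.03% of all genes were called. Eif2b3 was lower in low arginine than in low lysine, at 6.59, 6.77 and 6.72 against 7.19, 6.92 and 7.72 (-0.59, adjusted p = 0.0369), where 3.22% were called (2.65% higher, 0.577% lower). Eif2b2 was higher in low leucine than in low lysine by 0.74 (adjusted p = 0.0272), where 1.88% were called (1.59% higher, 0.289% lower). The call of Eif3a ended without any 1 of its 6 arrays, at -0.61 to -0.54 (adjusted p = 0.14 to 0.191). That of Eif2b3 ended without any 1 array but low lysine array 2, at -0.63 to -0.37 (adjusted p = 0.0771 to 0.161), and that of Eif2b2 without any 1 but low lysine array 3, at 0.63 to 0.82 (adjusted p = 0.0579 to 0.151). Without low lysine array 3, 4 members were called between low arginine and low lysine (4.6% of all genes). Between low leucine and low lysine 8 were called (6.38% of all genes). Without antigen, no member was called between any 2 low media by limma, and 0%, 0.00451% and 0.00902% of all genes were called. In those pairs 3, 3 and 6 members had an unadjusted p below 0.05.

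Eif4e3, an atypical member of the cap-binding family, had its highest values with antigen in full medium at both times. At 72 h it had the largest antigen rise of all called members, with 8.97, 8.73 and 9.19 with antigen, against 6.39, 7.18 and 6.8 without. The groups did not overlap, and the difference was 2.17 ± 0.23 (adjusted p = 2.21e-05). At 48 h it had 8.62, 8.8 and 8.68 with antigen in full medium, and every other 48 h array was lower. It had 8.22, 7.73 and 8.21 after IL-4/IL-10 pretreatment, 7.92, 7.9 and 7.71 with antigen in low arginine, 7.25, 7.35 and 7.58 in low leucine and 7.11, 7.24 and 7.52 in low lysine. Against full medium the differences were -0.86 ± 0.16 in low arginine (adjusted p = 0.00232), -1.31 ± 0.16 in low leucine (adjusted p = 2.79e-05) and -1.41 ± 0.16 in low lysine (adjusted p = 1.31e-05). Without antigen it had 7.59 and 7.67 in low arginine, 7.37, 7.97 and 7.73 in low leucine and 7.77, 7.45 and 7.33 in low lysine, and the antigen differences in those media, 0.21 ± 0.18, -0.3 ± 0.16 and -0.23 ± 0.16, were not called. So the values with antigen in low leucine and low lysine lay within or below the range without antigen, and whether the antigen effect differs from that in full medium could not be tested at 48 h.

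**Figure D3:**
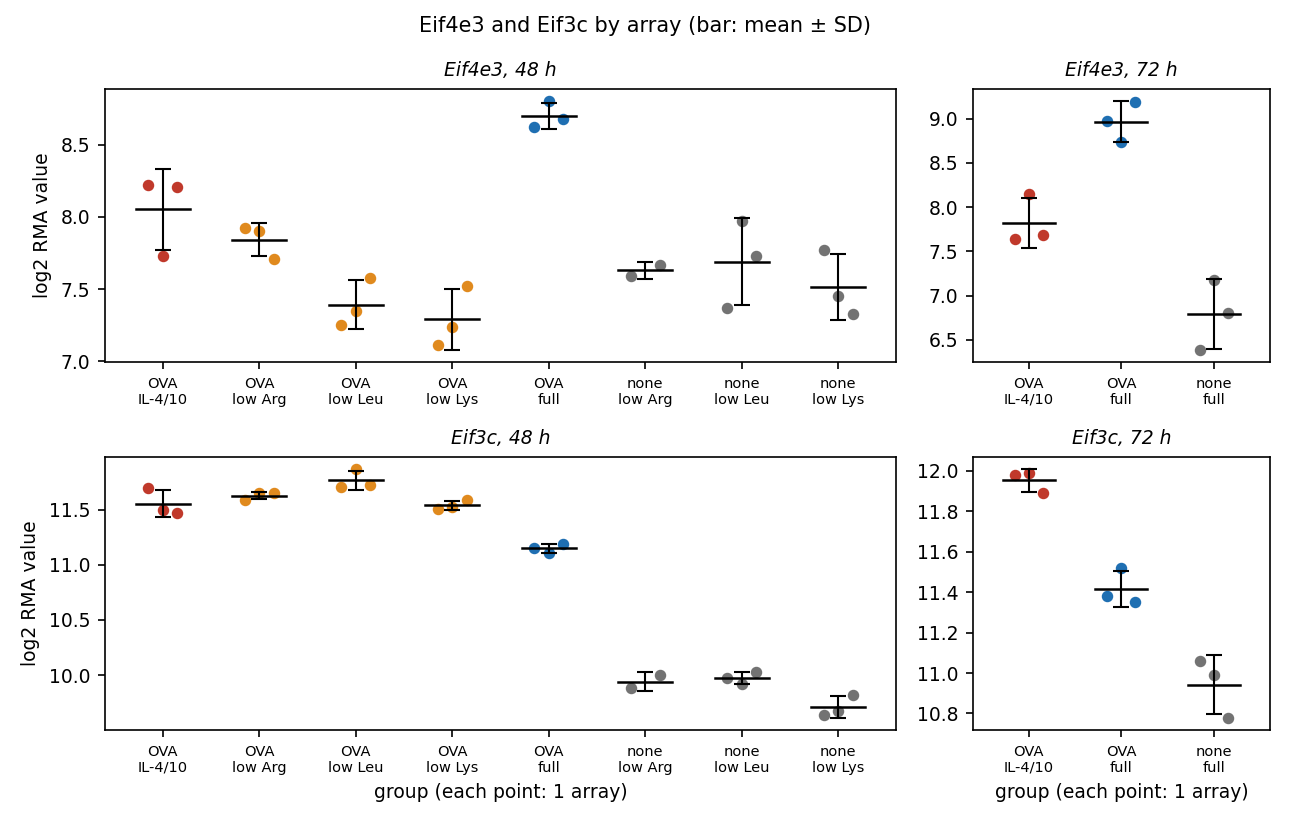
Log2 intensity of Eif4e3 and Eif3c in each array by group at 48 h and 72 h, with points for arrays and lines for the group mean ± SD. Eif4e3 is highest with antigen in full medium at both times, at 8.62 to 8.8 at 48 h, while Eif3c with antigen is lowest there, at 11.11 to 11.19.

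IL-4 and IL-10 turn macrophages towards an alternatively activated state, and the comparison asks how T cells stimulated by such macrophages differ. At 48 h the median member differed by -0.27 and the median gene by 0.01. The 8 called falls were 2 each in eIF2B, eIF3, the eIF4E group and eIF5A. Eif5a2 fell most, with 6.61, 6.21 and 6.44 after pretreatment, against 7.53, 7.45 and 7.69 with untreated macrophages (-1.14 ± 0.19, adjusted p = 0.000554). Eif3b had 8.93, 9.02 and 9.18 after pretreatment, against 9.82, 9.79 and 9.79 (-0.75, adjusted p = 0.00366). Eif2b1, a regulatory eIF2B subunit, had 6.8, 6.44 and 6.84 after pretreatment, against 7.42, 7.06 and 7.58 (-0.66). Eif5a had 8.38, 8.88 and 8.79 after pretreatment, against 9.35, 9.31 and 9.3 (-0.64, adjusted p = 0.00881). The Eif2b1 call ended without full-medium array 1 or 3 or pretreated array 2, at -0.63, -0.55 and -0.53. For these 4 genes no pretreated array reached an untreated one. The other called falls were Eif4e3 (-0.65 ± 0.16, adjusted p = 0.0139), Eif4enif1 (-0.49), Eif2b5 (-0.46) and Eif3d (-0.37). Eif3c alone was called higher, at 11.7, 11.5 and 11.47 after pretreatment, against 11.15, 11.11 and 11.19 (0.4, adjusted p = 0.00302).

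At 72 h the called members were partly others. Eif5 had 11.41, 11.47 and 11.65 after pretreatment, against 10.45, 10.71 and 9.97 with untreated macrophages (1.13 ± 0.19, adjusted p = 0.00554), and the antigen-free arrays lay at 10.35, 10.83 and 10.87. Eif6 had 10.76, 10.48 and 10.67 after pretreatment, against 9.75, 9.95 and 9.53 (0.89 ± 0.14, adjusted p = 0.00381). Both stood clear of the untreated arrays at 72 h. At 48 h the same contrast gave 0.26 ± 0.12 for Eif5 (adjusted p = 0.219) and -0.03 ± 0.19 for Eif6 (adjusted p = 0.964). Eif3c was again higher, at 11.98, 11.99 and 11.89 after pretreatment, against 11.38, 11.52 and 11.35 (0.54, adjusted p = 0.0061), and Eif4g2 was higher by 0.4. Eif4e3 was again lower, at 7.64, 8.15 and 7.68 after pretreatment, against 8.97, 8.73 and 9.19 (-1.14 ± 0.23, adjusted p = 0.0129). Eif2a had 8.03, 8.57 and 8.21 after pretreatment, against 9.25, 9.06 and 9.07 (-0.86), and Eif1ax (-0.66), Eif4e2 (-0.47) and Eif3l (-0.35) were lower too. The calls of Eif3l (-0.35 to -0.3) and Eif4g2 (0.33 to 0.42) ended without any of 5 and 4 of the 6 arrays, and that of Eif4e2 without untreated or pretreated array 3 (-0.48 and -0.44).

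**Figure D4:**
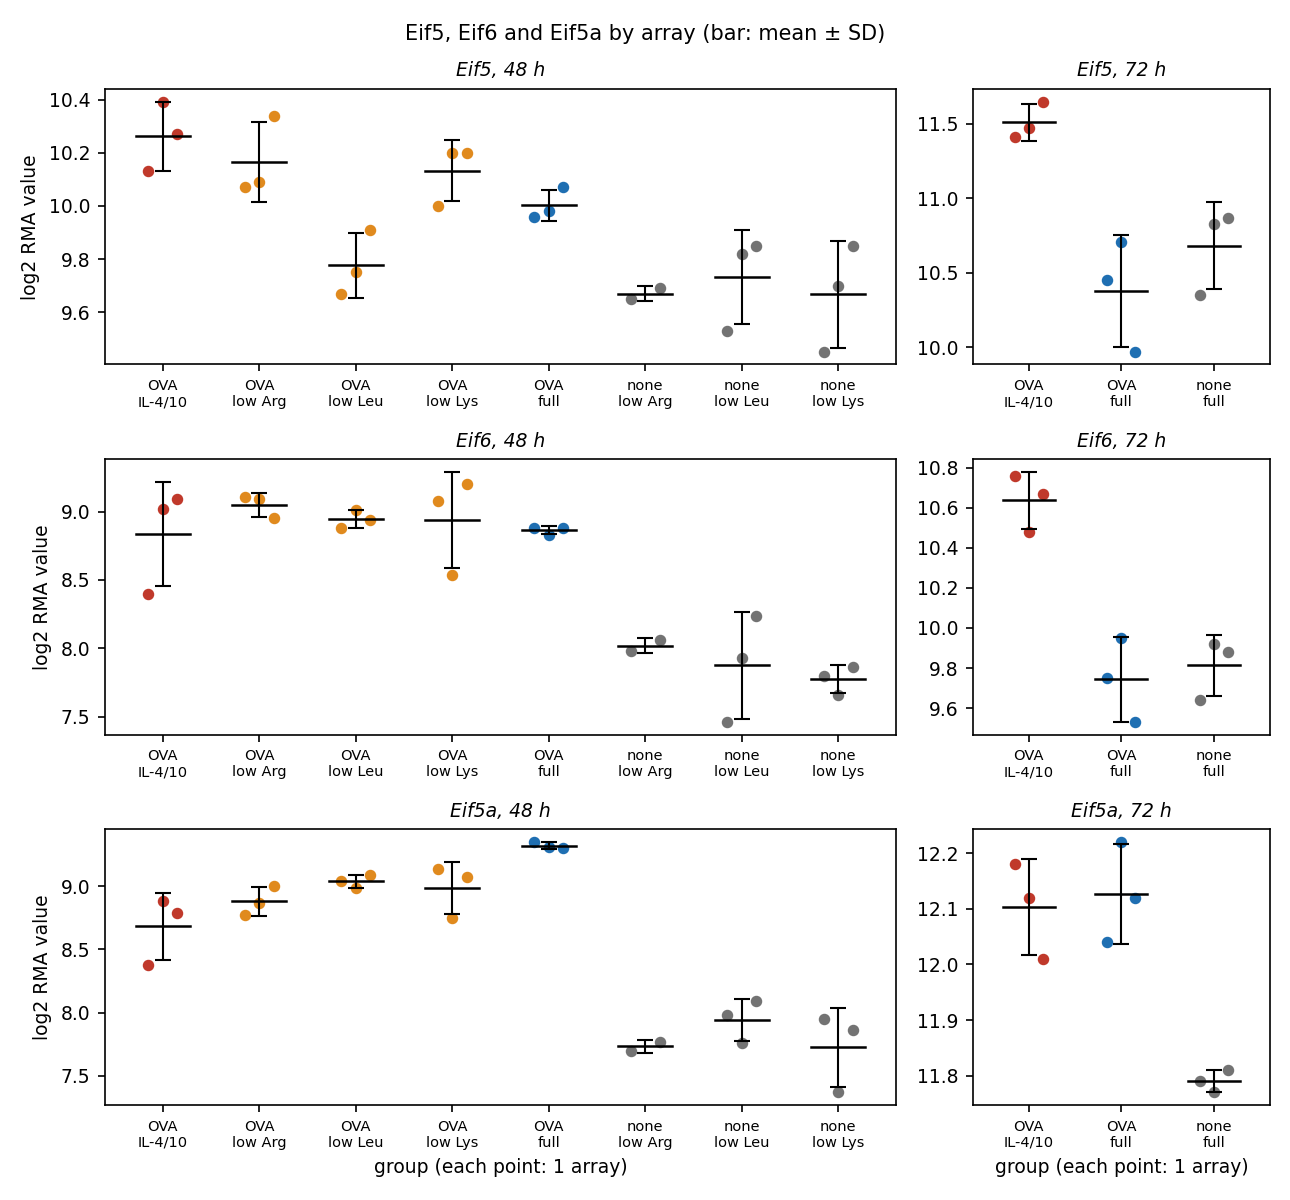
Log2 intensity of Eif5, Eif6 and Eif5a in each array by group at 48 h and 72 h, with points for arrays and lines for the group mean ± SD. At 72 h Eif5 lies at 11.41 to 11.65 after IL-4/IL-10 pretreatment, above the untreated antigen arrays at 9.97 to 10.71, whereas Eif5a is lower after pretreatment at 48 h.

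The 2 pretreatment comparisons share no array but differ in platform and time. Of the 34 members on both platforms, 20 had the same sign at both times. Eif4e3 was called lower at both times (1 of 6 lower calls at 48 h and 1 of 5 at 72 h), and Eif3c was called higher at both (1 of 1 at 48 h and 1 of 4 at 72 h). The Eif4e3 fall at 48 h was -0.6 without full-medium array 2 (adjusted p = 0.0685) and -0.49 without pretreated array 2 (adjusted p = 0.104). At 72 h it was -1.03 without untreated array 3 (adjusted p = 0.0701) and -1.07 without pretreated array 3 (adjusted p = 0.0677). The Eif5a fall was -0.48 without pretreated array 1 (adjusted p = 0.0757), and the Eif2a and Eif1ax falls were -0.83 and -0.6 without pretreated array 3 (adjusted p = 0.0533 and 0.0652). Where a gene has several probe sets at 72 h, averaging them gave 0.41 for Eif3c (adjusted p = 0.182), 0.57 for Eif6 (adjusted p = 0.05), -0.26 for Eif1ax (adjusted p = 0.511) and -0.16 for Eif4e2 (adjusted p = 0.521), none of them called.

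Cell division markers moved with the pretreatment. At 48 h 8 of 9 were called lower, with list means of 7.66 to 8.99 after pretreatment, against 9.72 to 9.75, and at 72 h 4 of 9 were lower, with means of 8.72 to 10.1 after pretreatment, against 10.31 to 10.63. At 48 h 4 of 5 markers of alternatively activated macrophages were called higher (7 to 7.74 after pretreatment, 5 to 5.26 without), and 4 of 13 macrophage markers (6.51 to 6.93 after pretreatment, 6.16 to 6.26 without). At 72 h 2 of 12 mesothelial and stromal markers were called higher, with a list mean of 4.62 to 6.53 after pretreatment, against 4.02 to 4.42. Their part in the pretreatment results was not tested.

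Arginine is broken down by macrophage arginase, and leucine and lysine are essential amino acids, so the low media ask what shortage of each does to antigen-stimulated cells. Beyond Eif4e3 and Eif3c, 6 further changes were called against full medium in the fit over all groups, in addition to Eif5a2. In low arginine Eif5a2 had 6.41, 6.4 and 7.01, against 7.53, 7.45 and 7.69 in full medium (-0.95 ± 0.19, adjusted p = 0.00391). In low leucine it had -0.23 ± 0.19 and in low lysine -0.53 ± 0.19, neither called. Eif2b5 was lower in low arginine (-0.51) and Eif3f was higher in low arginine (0.31) and low leucine (0.35). In low lysine Eif1b (-0.57), Eif2b2 (-0.64) and Eif4e2 (-0.41) were lower. The Eif5a2 call held under every alternative, and the others did not. Those of Eif3f ended without any 1 of their 6 arrays, at 0.28 to 0.35 in low arginine and 0.32 to 0.39 in low leucine. That of Eif2b5 ended without any 1 array but low arginine array 3, at -0.54 to -0.44. Those of Eif1b (-0.56 to -0.42) and Eif2b2 (-0.62 to -0.53) ended without full-medium array 2 or 3 or low lysine array 1 or 2, and that of Eif4e2 (-0.43 to -0.38) also without full-medium array 1. The cell division list mean was 7.33, 8.43 and 9.15 with antigen in low lysine, against 9.72 to 9.75 in full medium (7 of 9 markers called lower), and B cell markers were higher in low lysine (4 of 5 called, means 5.81 to 7.1, against 5.55 to 5.67). No cell division marker was called in low arginine or low leucine. The part of these markers was not tested.

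Eif2s3y, the Y-linked copy of the eIF2 gamma gene, was the least even member. At 48 h it split into 7 arrays at 4.52 to 4.92 and 16 arrays at 7.6 to 9.2. The low arrays were exactly those of 2 of the 6 runs of consecutive IDs, 1 among the low-medium runs and 1 among the full-medium runs. Other Y-linked genes, Kdm5d (4.14 to 4.9 in those 7 arrays, 7.44 to 8.46 in the other 16) and Uty (3.68 to 4.35 in the 7, 6.11 to 7.94 in the 16), followed it. Xist, the RNA of the inactive X chromosome, was opposite (10.2 to 11.66 in the 7, 5.37 to 7.85 in the 16). The split crossed the study's groups, except that the antigen-free low arginine group had no array of the low run. Eif2s3y was called in no comparison, with a standard error of 1.44 in most. Without those 7 arrays the antigen counts in the 3 low media stayed within 1.5 times of the reported ones. After pretreatment 4 members were called (4.7% of all genes). At 72 h Eif2s3y had 9.28, 8.47 and 6.92 after pretreatment, 9.44, 8.56 and 8.76 with antigen and untreated macrophages, and 8.62, 6.88 and 4.01 without antigen, so the antigen difference of 2.42 ± 0.94 was not called (adjusted p = 0.0655).

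**Figure D5:**
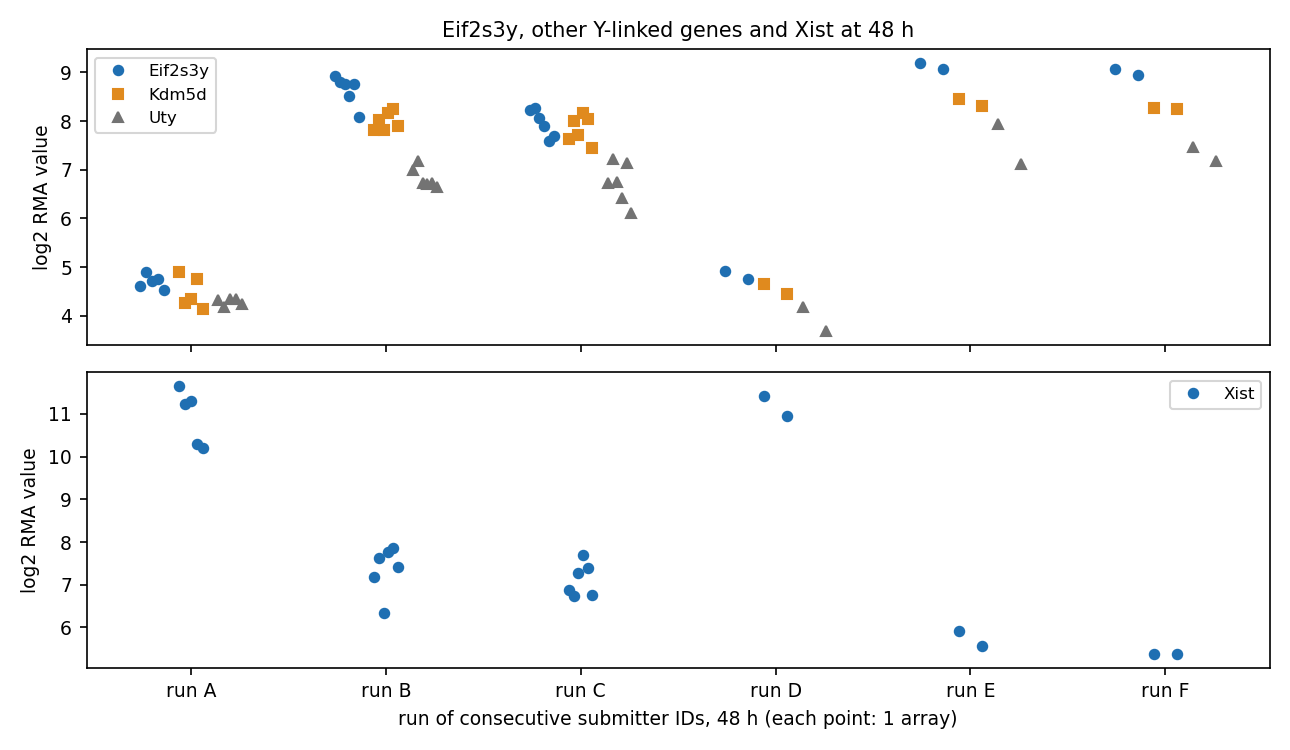
Log2 intensity of Eif2s3y, the Y-linked Kdm5d and Uty, and Xist in each 48 h array, by run of consecutive submitter IDs. Eif2s3y lies at 4.52 to 4.92 in the 7 arrays of runs A and D and at 7.6 to 9.2 in the other 16.

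Of the 46 members, 42 were called in at least 1 comparison and 4 in none. The 4 were Eif2s3y, Eif3j1, the oocyte cap-binding gene Eif4e1b and Eif2c5, which RefSeq lists as a long non-coding RNA gene. Eif1-ps3, a pseudogene, was called higher with antigen in low arginine (0.69 ± 0.18) and low leucine (0.51 ± 0.16). Eif3c was called most often, 9 times, followed by Eif2b2, Eif3f, Eif4e2 and Eif4e3 with 6 each, and Eif4e3 was lower in 5 of its 6.

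Regulators of initiation were set beside the factors. Eif4ebp1, the inhibitor of eIF4E that mTORC1 releases, was higher with antigen by 3.16 ± 0.18, 2.59 ± 0.16 and 2.92 ± 0.16 in low arginine, leucine and lysine and by 0.78 ± 0.11 at 72 h. It was also higher after pretreatment, by 0.68 ± 0.16 at 48 h and 0.58 ± 0.11 at 72 h. Of the 4 eIF2 alpha kinases, Eif2ak2, the double-stranded RNA sensor PKR, was lower than in full medium with untreated macrophages in the 4 other antigen groups at 48 h, with -0.85 ± 0.15 after pretreatment and -0.8 ± 0.15, -0.72 ± 0.15 and -0.89 ± 0.15 in low arginine, leucine and lysine. Eif2ak4, the amino acid sensor GCN2, was called in none of these comparisons (-0.35, -0.47, -0.37 and -0.35). Eif2ak1, the haem-regulated kinase, was higher with antigen in low leucine (0.46 ± 0.14) and low lysine (0.42 ± 0.14). Ppp1r15a, the stress-induced subunit that returns eIF2 alpha to its unphosphorylated state, was higher after pretreatment at 48 h by 1.15 ± 0.17 (adjusted p = 0.000186) and in low leucine against full medium by 0.69 ± 0.17 (adjusted p = 0.0308). Its constitutive relative Ppp1r15b was higher with antigen in the 3 low media, by 0.83 ± 0.14, 0.7 ± 0.13 and 0.56 ± 0.13.

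Genes of other translation steps were counted in the same way. Of 17 measured partners and regulators of initiation, such as the poly(A)-binding proteins, 10, 11 and 10 were called higher with antigen in low arginine, leucine and lysine, and 1, 0 and 0 lower. Of 9 elongation factors 4, 6 and 5 were called higher and none lower, and 2 of 3 release factors were called higher in each medium. At 72 h 8 of 18 partners were higher and 1 lower with antigen, and 5 of 9 elongation factors were higher. After pretreatment no elongation or release factor was called at either time by limma, with 2 of 9 elongation factors and 1 of 3 release factors at an unadjusted p below 0.05 at 48 h and 3 and 2 at 72 h.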

How the data were processed

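RNA of sorted CD4+ T cells (100 ng per array) was measured on 32 one-colour Affymetrix arrays, 23 at 48 h and 9 at 72 h. Per the submitters' processing notes, the authors used Affymetrix Expression Console 1.1 and RMA, and the log2 value they deposited for each probe set was used unchanged. The platforms were normalized separately, so no level was set across them. The number of arrays limits the precision, and no read depth applies.

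Probe sets annotated to 1 gene were kept (23521 at 48 h, 28898 at 72 h), and each gene was taken from its probe set with the highest mean. limma 3.58.1 (R 4.3.3) was run with lmFit and eBayes (trend) over all groups of a platform, giving 15 comparisons and 1 F test, with Benjamini-Hochberg adjustment over all genes and a threshold of 0.05. Scripts were tested on simulated data. Values per array are printed for the 5 largest called rises and falls of a comparison, for the most often called members and for fixed members of each complex. The members and lists were chosen with earlier results of these data known.

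Replicate numbers were taken to pair samples where all same-numbered arrays varied together, which held after pretreatment at 72 h (r = 0.16 to 0.26) and between low arginine and low leucine with antigen (r = 0.29 to 0.39). Alternatives were quantile normalization, median centring, a filter on the dimmest 25% of genes, averaged probe sets, no trend, groups compared alone, replicate and ID run blocks and single arrays left out. Leaving out the 7 arrays of 2 ID runs was added after the data were seen. Figures used Python 3.11.15 and matplotlib 3.10.9.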

Additional observations from a re-analysis of the deposited data

Results flagged for a closer look

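Between low media with antigen, 3 members passed a test of the difference itself, 1 of 45 in each pair. Eif3a was lower in low arginine than in low leucine (-0.58), Eif2b3 was lower in low arginine than in low lysine (-0.59), and Eif2b2 was higher in low leucine than in low lysine (0.74). In these pairs 0.712%, 3.22% and 1.88% of all genes were called. The call of Eif3a ended without any 1 of its 6 arrays, and those of Eif2b3 and Eif2b2 without any 1 of 5.

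In 3 members the antigen effect ran one way in full medium at 72 h and the other way in all 3 low media at 48 h, with no overlap between arrays in any of the 4 comparisons. Lack of overlap was common, in 7977 of all 17097 genes at 72 h. In low arginine, leucine and lysine it held for 13333, 11311 and 9067 of 22180 genes. Genes with the whole pattern were not counted over the platform. At 72 h Eif3f (-1.41), Eif4e (-0.53) and Eif4g3 (-0.34) were lower in every array with antigen than in every array without it, and at 48 h they were higher in every array with antigen in each low medium. The times differ in platform and medium, and the difference was not tested. Among these, Eif3f and Eif4e were called at 72 h, Eif3f on 1 of its probe sets and Eif4e on a dim one whose difference was -0.02 with arrays centred. By sign alone, with overlap in at least 1 comparison, Eif4g2 (-0.27 at 72 h), Eif5 (-0.31), Eif4b (-0.09), Eif6 (-0.07) and Eif1a (-0.05) also ran lower at 72 h and higher in the 3 low media. On their other 72 h probe sets, Eif4b (means 10.18 with antigen against 9.94, and 9.46 against 9.09) and Eif1a (9.01 against 8.71) were higher. Those of Eif5 (10.08 against 10.4, 7.35 against 6.89) went both ways. The brighter ones of Eif4g2 were lower (11.32 against 11.56, 8.43 against 9.63), and its dim ones were slightly higher (4.31 against 4.12, 3.25 against 3.13). That of Eif6 was lower (5.19 against 5.37).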

How the results depend on the processing

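The antigen counts stayed within 1.5 times of the reported count under every alternative. With 1 array left out they were 26 to 31 in low arginine, 33 to 37 in low leucine, 34 to 36 in low lysine and 22 to 23 at 72 h. Of 61 member calls examined, 34 held under every setting and 37 under every setting other than leaving out 1 array.

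The smaller counts depended on the processing. Percentages give the share of all genes called. After pretreatment at 72 h, averaging probe sets left 3 members called (8.18%). Without the 7 arrays of 2 ID runs, the counts were 4 after pretreatment at 48 h (4.7%), 3 in low arginine (2.54%) and 2 in low lysine (3.19%). Each pair of low media with antigen had 0 (0.0586% to 0.775%). With the groups compared alone, 19 members were called in low arginine (6 higher, 13 lower, 11.1%), 9 in low leucine (7.46%) and 3 in low lysine (4.36%). That setting gave 8, 0 and 0 between arginine and leucine, arginine and lysine, and leucine and lysine media (3.96%, 0.627% and 0.225%). Median centring gave 3 in low arginine (3.74%) and 0 between arginine and leucine (0.428%) or lysine (2.87%). Between arginine and leucine media, quantile normalization gave 3 (0.78%), no trend 0 (0.645%), the replicate block 3 (1.03%) and the ID run block 2 (0.757%). Between arginine and lysine media quantile normalization gave 2 (2.97%). Between leucine and lysine media the filter gave 2 (3.19%), the replicate block 4 (2.88%) and the ID run block 3 (2.38%). Eif4g2 at 72 h with antigen turned to 0.24 with centring. The causes were not tested.

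With 1 array left out, the counts were 4 to 10 after pretreatment at 48 h, 3 to 11 at 72 h, 3 to 4 in low arginine, 2 in low leucine and 2 to 12 in low lysine. They were 0 to 1 between arginine and leucine, 0 to 4 between arginine and lysine and 0 to 8 between leucine and lysine media with antigen, and 0 throughout in the pairs without antigen and in the F test. The counts of 12, 4 and 8, all without low lysine array 3, came with 14.4%, 4.6% and 6.38% of all genes called. Where a group was left with 1 array, it was assumed to vary like the other groups. The replicate block left 9 members called after pretreatment at 72 h. With antigen it moved the counts between arginine and leucine media (to 3) and between leucine and lysine media (to 4) beyond 1.5 times. It moved no other count that far. Dim probe sets limit what can be said of Eif4e and Eif2b5 at 72 h.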
